A study of Homo sapiens with 10 samples.

Results

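The type I interferon response genes described here are 42 genes chosen by name, among the 20289 genes of the deposited expression table: the transcription factors and sensor that carry the response, the ISG15 system, and the antiviral effectors of the IFIT, OAS, MX, IFITM, IFI and SAMD9 families with their usual companions. No measured value entered the choice, though the members were chosen with earlier results of these data known. The study measured RNA in PANC-1 and CFPAC-1, established lines of human pancreatic adenocarcinoma cells, to look for regulators of ferroptosis, an iron-dependent cell death driven by lipid peroxidation. Cells had 24 h with imidazole ketone erastin (IKE), an erastin derivative that blocks cystine uptake by system xc-, or with 0.1% DMSO, and dead cells and debris were removed before RNA was taken. The 10 libraries fall into PANC-1 with 1 µM IKE (n = 4), PANC-1 with DMSO (n = 2), CFPAC-1 with 10 µM IKE (n = 2) and CFPAC-1 with DMSO (n = 2). Dose therefore differs between the lines, IKE libraries hold only cells that survived, and each line is a single established line, so that a difference between them is a difference between these lines.

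Type I interferons bind a receptor of IFNAR1 and IFNAR2, whose kinases TYK2 and JAK1 phosphorylate STAT proteins, STAT2 among them. STAT2 and IRF9 are parts of the complex ISGF3, which binds the interferon-stimulated response element (ISRE) in the promoters of target genes, and many of the targets block a step of viral replication. Several of the factors are targets themselves, a number of targets also respond to interferon gamma or directly to IRF1, IRF3 or IRF7, and tumour cell lines are known to differ in how much of the set they express without added interferon.

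The ISRE is a feature known from the promoters of many interferon targets, so promoter windows are shown before the values. RefSeq windows (GRCh38.p14), which run from 250 bases before a transcript start to 50 after it, were at hand for 34 of the 42 members. MX2, IFIT2, IFITM2, OAS2, OASL, IRF7, USP18 and TRIM22 had none. The ISRE core GAAANNGAAA, searched on both strands with overlapping matches allowed, was found for 24 of the 34 members (70.6%) and for 1195 of all 27305 genes with a window (4.38%). The core of the gamma-activated site, TTCNNNGAA, searched in the same way, was found for 12 of the 34 (35.3%), against 9.38% of all genes. No ISRE core stood in the windows of CMPK2, HERC6, IFI35, IRF1, IRF9, OAS1, SAMD9L, SP110, STAT2 and XAF1, which says only that these letters are not in these 300 bases. A match is a description of sequence and not a measured binding site.

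The stretches below show, in capitals, the ISRE core matches that lie before the transcript start, for members whose levels are described further on. A match at or past the start is left out, so that IFIT5, with 3 matches in its window, is shown with 2. They are written 5′ to 3′ on the strand of the gene. The first 3 are neighbours on chromosome 10: IFIT1 at chr10:89392487-89392549 (plus strand), IFIT3 at chr10:89327821-89327904 (plus strand) and IFIT5 at chr10:89414503-89414567 (plus strand). The next 4 belong to members with some of the largest differences between the lines: IFI27 at chr14:94110608-94110670 (plus strand), IFI44L at chr1:78620264-78620404 (plus strand), IFI6 at chr1:27672256-27672368 (minus strand) and BST2 at chr19:17405725-17405780 (minus strand). The last 3 are ISG15 at chr1:1013364-1013419 (plus strand), HERC5 at chr4:88456974-88457074 (plus strand) and PARP9 at chr3:122564322-122564351 (minus strand).
IFIT1: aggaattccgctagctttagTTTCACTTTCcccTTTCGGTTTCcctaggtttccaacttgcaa
IFIT3: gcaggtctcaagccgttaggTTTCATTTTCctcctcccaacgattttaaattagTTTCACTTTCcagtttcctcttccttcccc
IFIT5: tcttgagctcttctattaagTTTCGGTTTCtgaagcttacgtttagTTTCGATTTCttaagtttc
IFI27: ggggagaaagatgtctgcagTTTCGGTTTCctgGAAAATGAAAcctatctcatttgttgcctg
IFI44L: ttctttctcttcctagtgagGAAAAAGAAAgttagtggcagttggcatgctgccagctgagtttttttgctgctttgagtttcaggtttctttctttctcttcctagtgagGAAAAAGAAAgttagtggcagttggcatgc
IFI6: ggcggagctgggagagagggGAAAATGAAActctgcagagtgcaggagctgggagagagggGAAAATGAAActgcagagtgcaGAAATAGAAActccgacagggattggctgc
BST2: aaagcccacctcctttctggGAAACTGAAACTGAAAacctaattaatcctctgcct
ISG15: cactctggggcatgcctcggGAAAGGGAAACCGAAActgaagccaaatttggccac
HERC5: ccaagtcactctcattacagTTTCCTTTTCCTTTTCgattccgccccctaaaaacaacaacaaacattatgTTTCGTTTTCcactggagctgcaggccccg
PARP9: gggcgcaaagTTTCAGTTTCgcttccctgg
In BST2 and ISG15 the 2 matches overlap by 4 bases, as do the first 2 of the 3 in HERC5, and in IFI44L the 2 matches are the same letters within a repeated stretch. The match of PARP9 is also that of its divergent neighbour DTX3L, at chr3:122564332-122564341.

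Levels are in FPKM, a measure scaled to transcript length and to the size of the library, as the authors deposited them. Sums of FPKM over all genes ran from 405937 to 472665, and the number of genes at 1 FPKM or more from 11604 to 12248. Read counts were not analysed here, so depth and counting error are unknown. Mitochondrially encoded genes held 2.65% to 5.27% of the FPKM, most of all in replicate 3 of PANC-1 with IKE. All 6 markers of pancreatic duct and epithelium reached 1 FPKM in every library, with summed levels of 4861 to 5688 FPKM in PANC-1 and 5959 to 6846 FPKM in CFPAC-1. KRT8, KRT18 and KRT19 make up most of these sums. KRT7 was 4.39 to 6.15 FPKM in PANC-1 and 271 to 330 FPKM in CFPAC-1. EPCAM was 8.58 to 11.1 and 152 to 158 FPKM, and CDH1 12.8 to 15.7 and 88.8 to 95.4 FPKM. KRT19 was also lower in PANC-1, KRT18 was higher, and KRT8 overlapped between the lines. The 3 mesenchymal markers summed to 1935 to 2107 FPKM in PANC-1 and 577 to 654 FPKM in CFPAC-1, most of it VIM. ZEB1 was also higher in PANC-1, but CDH2 was lower, with 14.1 to 16.9 FPKM against 37.0 to 41.5 FPKM in CFPAC-1.

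Markers of cell types that a carcinoma line should lack were read in the same libraries. The 7 leukocyte markers summed to 25.7 to 33.5 FPKM in PANC-1, where 1 of the 7 reached 1 FPKM in every library, and to 77.8 to 84.2 FPKM in CFPAC-1, where 3 of the 7 did (CD68, LYZ and CD14). The defining leukocyte gene PTPRC was at most 0.03 FPKM in any library, CD3E was at most 0.04 FPKM and NKG7 was listed at 0 in all 10. Of the 4 plasmacytoid dendritic cell markers, CLEC4C, LILRA4 and GZMB were listed at 0 in all libraries. The fourth, IL3RA, was 0.04 to 0.19 FPKM in PANC-1 and 2.45 to 3.54 FPKM in CFPAC-1. The endothelial marker PECAM1 was 0.03 to 0.08 FPKM in PANC-1 and 18.5 to 21.3 FPKM in CFPAC-1, while VWF was at most 0.03 FPKM and CDH5 at most 0.30 FPKM in any library. The sum of the 6 fibroblast markers went the other way, at 19.4 to 26.4 FPKM in PANC-1 and 4.41 to 7.5 FPKM in CFPAC-1, most of it COL1A1. LUM and COL1A2 were nonetheless higher in CFPAC-1. They were at most 0.12 and 0.16 FPKM in PANC-1, against 0.47 to 0.83 and 0.19 to 0.24 FPKM in CFPAC-1. The 3 acinar markers summed to at most 0.12 FPKM in any library. The part of these marker differences in the differences between the lines was not tested.

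PANC-1 held the interferon response genes at far lower levels than CFPAC-1, with or without the drug. The 42 members summed to 1126 to 1272 FPKM in PANC-1 given IKE and 1118 to 1140 FPKM in PANC-1 given DMSO, against 4287 to 4450 FPKM in CFPAC-1 given IKE and 4598 to 4677 FPKM in CFPAC-1 given DMSO. The median member stood at 6.01 to 6.84 FPKM in the 6 PANC-1 libraries and at 45.8 to 50.2 FPKM in the 4 CFPAC-1 libraries. Neither measure overlapped between the lines. IFITM3 was the largest single part of the sums. Its mean was 591 FPKM in PANC-1 with IKE and 545 FPKM with DMSO, against 871 and 859 FPKM in CFPAC-1. In every library of PANC-1 treated with IKE 6 members were under 1 FPKM, as were 7 in PANC-1 with DMSO and 0 in either CFPAC-1 group. Members of at least 100 FPKM in every library numbered 1 in each PANC-1 group, IFITM3, and 11 in each CFPAC-1 group. In bulk RNA, fewer cells that express a gene and less RNA per cell cannot be told apart.

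**Figure D1:**
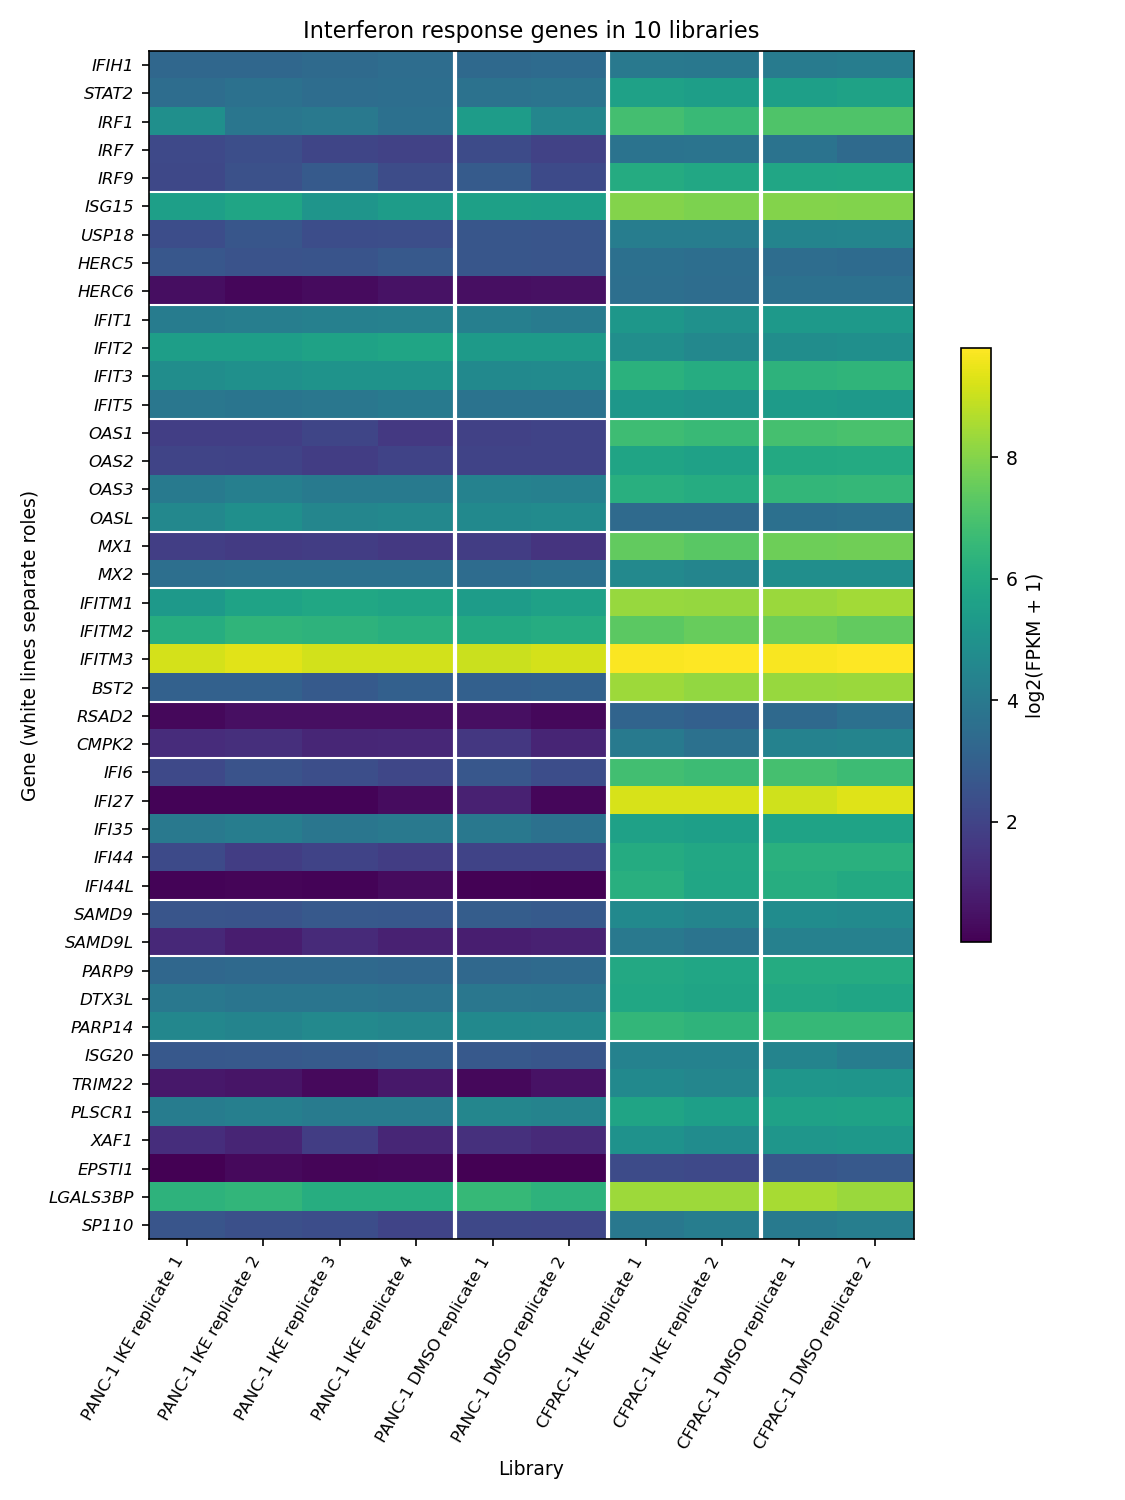
Level of each of the 42 interferon response genes (rows, grouped by role) in the 10 libraries (columns), as log2(FPKM + 1) on the colour scale. The 6 PANC-1 columns are darker than the 4 CFPAC-1 columns for 40 genes, OASL and IFIT2 run the other way, and IKE and DMSO columns of the same line look alike.

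With DMSO in both lines, 40 of the 42 members were lower in PANC-1 than in CFPAC-1 and 2, OASL and IFIT2, were higher. Each of these differences was called, meaning an adjusted p under 0.05 from limma with Benjamini-Hochberg adjustment over the 13077 genes that reached 1 FPKM in 2 or more libraries. The lines differ widely outside this set as well. Of all genes tested, 35.2% were called lower and 43.4% higher in PANC-1, so that lower calls make up a larger share of the members than of the table. The median log2 fold change on the log2(FPKM + 1) scale was −2.08 over the members and 0.12 over all genes tested. Both PANC-1 libraries lay below both CFPAC-1 libraries for the 40 genes and above both for the other 2, which was the case for 40.3% and 49.0% of all genes. All 42 members passed the filter, but 6 (IFI27, IFI44L, RSAD2, HERC6, EPSTI1 and TRIM22) passed it only through CFPAC-1 and so had to differ. Of the 36 that also passed in PANC-1 alone, 34 were lower and 2 higher.

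The comparison of the lines with IKE gave again 40 members lower and 2 higher, against a background of 37.1% lower and 44.6% higher, and a median of −2.04. These are other libraries of the same lines, at different doses. Scaling each library by median ratios moved the median of all genes from 0.12 to 0.00 and left the members' 40 lower and 2 higher calls in place. Over all genes with DMSO it gave 5022 higher and 5147 lower calls, against 5678 and 4608 in the main analysis. Which direction is the commoner in the background thus depends on the scaling.

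**Figure D2:**
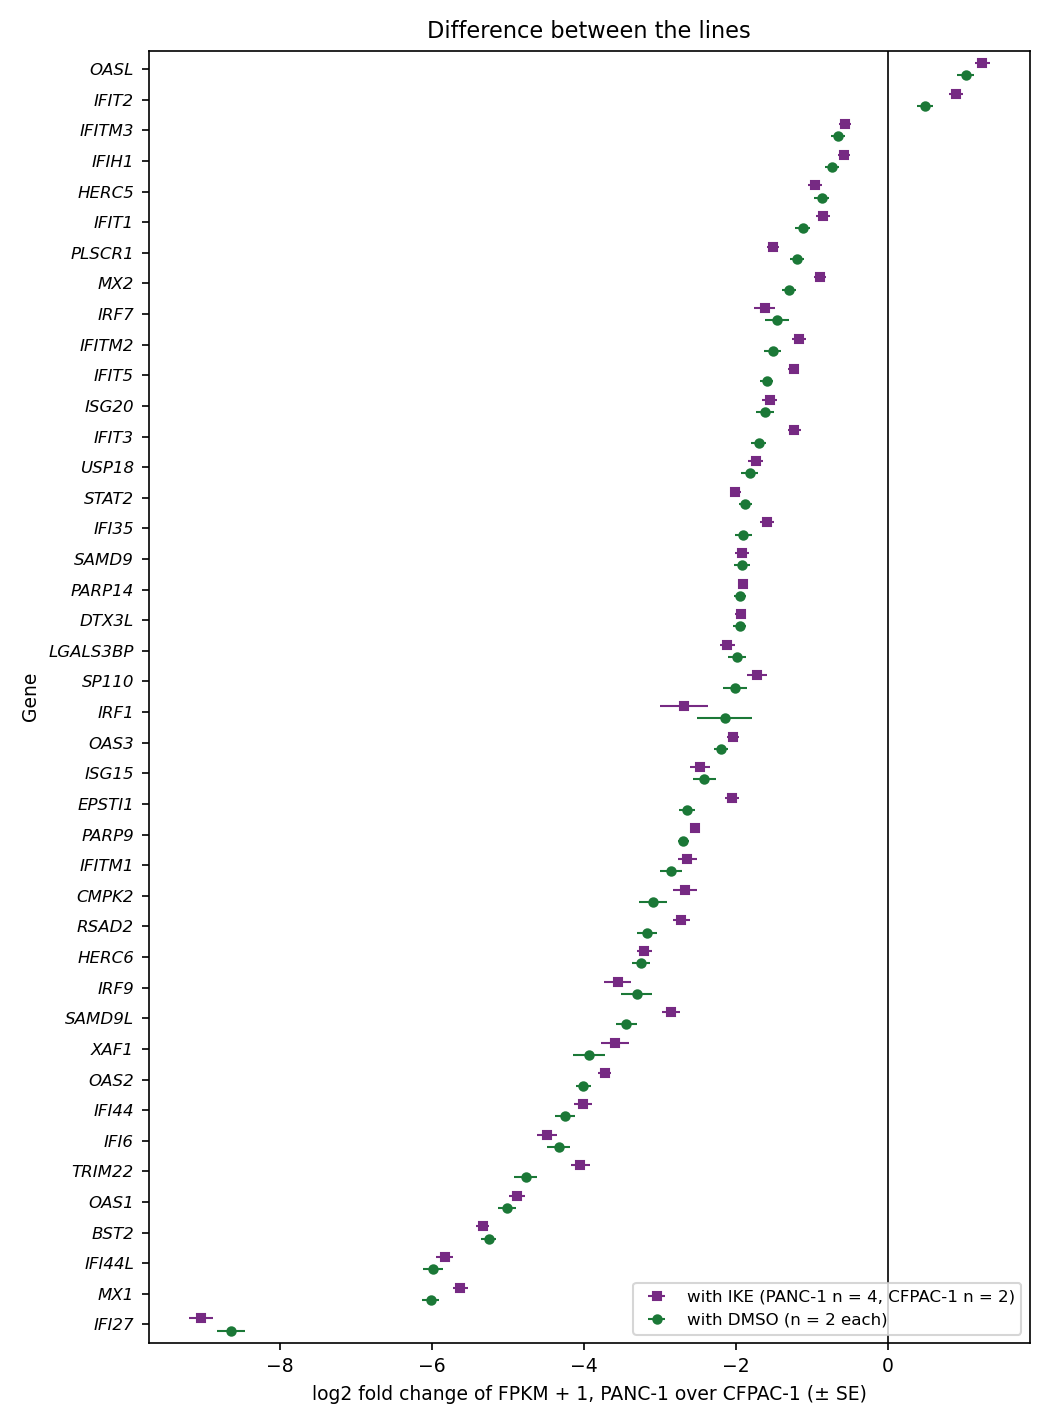
Difference between the lines for each member, as the log2 fold change of FPKM + 1, PANC-1 over CFPAC-1, with its standard error, for IKE libraries (squares) and DMSO libraries (circles). Genes run from OASL (1.02 with DMSO) and IFIT2 (0.48) at the top to IFI27 (−8.64) at the bottom.

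Among the factors that carry the signal, all 5 members were lower in PANC-1. IRF9, the DNA-binding subunit of ISGF3, was 6.10 and 3.63 FPKM in PANC-1 with DMSO, against 55.1 and 56.2 FPKM in CFPAC-1, a log2 fold change of −3.31 (SE 0.21, limma adjusted p = 4.05e-08). STAT2, its partner in the complex, was 11.9 and 12.6 FPKM in PANC-1 and 45.8 and 49.5 FPKM in CFPAC-1, 3.88-fold lower. IRF1, which activates interferon targets on its own, was 42.4 and 21.5 FPKM in PANC-1 and 137 and 137 FPKM in CFPAC-1 (−2.15, SE 0.36, limma adjusted p = 1.83e-04). The 2 PANC-1 libraries were far apart for IRF1 and IRF9, replicate 1 being the higher one for both, yet both stood below every CFPAC-1 library. IRF7, the amplifier of interferon production, was 3.72 and 2.87 FPKM in PANC-1 and 12.2 and 9.49 FPKM in CFPAC-1. IFIH1 (MDA5), a cytosolic sensor of double-stranded RNA, was among the members that differed least, with 9.33 and 9.84 FPKM in PANC-1 and 16.2 and 17.0 FPKM in CFPAC-1 (−0.73, SE 0.09).

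The 4 genes of the ISG15 system were lower in PANC-1 as well. ISG15, the ubiquitin-like modifier itself, was 46.4 and 45.3 FPKM in PANC-1 and 251 and 246 FPKM in CFPAC-1, 5.42-fold lower. USP18, which removes ISG15 from proteins and holds back receptor signalling, was 5.26 and 5.00 FPKM in PANC-1 and 20.3 and 20.9 FPKM in CFPAC-1, 4.01-fold lower. HERC5, the main human ligase for ISG15, was 5.17 and 4.98 FPKM in PANC-1 and 10.4 and 9.87 FPKM in CFPAC-1, a difference of 1.99-fold. Its relative HERC6 was 0.32 and 0.37 FPKM in PANC-1 and 11.8 and 11.7 FPKM in CFPAC-1. The modifier and its 3 companions thus kept separate ranges in the lines, with HERC5 the least and HERC6 the most unequal on the log2 scale.

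The IFIT genes encode proteins that bind viral RNA or block its translation. Their 4 members did not move as a block. IFIT2 was higher in PANC-1, with 39.4 and 39.3 FPKM against 27.2 and 28.7 FPKM in CFPAC-1 (0.48, SE 0.10, limma adjusted p = 0.00115). IFIT3 was 24.3 and 24.7 FPKM in PANC-1 and 79.7 and 84.1 FPKM in CFPAC-1 (−1.70, SE 0.10). IFIT1 was 17.7 and 16.0 FPKM in PANC-1 and 38.0 and 37.7 FPKM in CFPAC-1 (−1.12, SE 0.10), and IFIT5 differed by −1.60. In PANC-1 IFIT2 was the highest of the 4, whereas in CFPAC-1 it was the lowest.

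The OAS family, enzymes that make 2′-5′ oligoadenylates in response to double-stranded RNA, showed the same kind of split. OAS1 was 2.76 and 2.95 FPKM in PANC-1 and 119 and 127 FPKM in CFPAC-1, 43.1-fold lower (log2 fold change −5.01, SE 0.12, limma adjusted p = 1.18e-11). OAS2 was 2.92 and 2.94 FPKM in PANC-1 and 61.8 and 62.6 FPKM in CFPAC-1, 21.2-fold lower, and OAS3 was 4.77-fold lower. OASL, which lacks the enzyme activity and enhances RIG-I signalling, was higher in PANC-1, with 24.2 and 25.5 FPKM against 11.3 and 12.1 FPKM in CFPAC-1 (1.02, SE 0.11, limma adjusted p = 4.52e-06). OASL and IFIT2 are both also known as direct targets of IRF3, and they are not the only targets that respond to it. IRF3 itself was not called between the lines with DMSO (0.18, limma adjusted p = 0.173). Its part in the levels of OASL and IFIT2 was not tested.

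MX1 and MX2 are dynamin-like GTPases that trap incoming viruses, MX1 against influenza and many RNA viruses and MX2 against HIV. MX1 had the smallest p of all members in this comparison, with 2.48 and 1.80 FPKM in PANC-1 and 199 and 202 FPKM in CFPAC-1, 93.7-fold lower (−6.01, SE 0.11, limma adjusted p = 1.57e-12). MX2 was 10.1 and 11.3 FPKM in PANC-1 and 27.5 and 28.0 FPKM in CFPAC-1, 2.59-fold lower. MX2 was thus the higher of the pair in PANC-1 and MX1 the higher in CFPAC-1.

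The membrane proteins ran from IFITM3, with the smallest difference among the members lower in PANC-1, to some of the largest. IFITM3, which blocks fusion of viruses in endosomes, was the most abundant member in all libraries, with 516 and 574 FPKM in PANC-1 and 841 and 877 FPKM in CFPAC-1 (−0.66, SE 0.09). IFITM1, its relative at the cell surface, was 42.1 and 47.8 FPKM in PANC-1 and 319 and 344 FPKM in CFPAC-1 (−2.86, SE 0.14), and IFITM2 differed by −1.52. These 3 paralogs are alike in sequence and the annotated span of IFITM1 lies within that of IFITM2, so reads may have been split between them and each value is uncertain. BST2 (tetherin), which holds budding virions on the cell, was 6.98 and 7.63 FPKM in PANC-1 and 313 and 316 FPKM in CFPAC-1, 43.1-fold lower (−5.25, SE 0.10, limma adjusted p = 1.82e-12).

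Some of the most unequal members belong to the loosely named IFI genes. IFI27, a mitochondrial protein and a common blood marker of interferon exposure, was 0.90 and 0.15 FPKM in PANC-1 and 548 and 635 FPKM in CFPAC-1 (−8.64, SE 0.19, limma adjusted p = 5.22e-12). IFI44L was 0.06 and 0.01 FPKM in PANC-1 and 67.8 and 61.5 FPKM in CFPAC-1 (−5.99, SE 0.13). IFI6, an inhibitor of apoptosis and of flavivirus replication, was 5.31 and 3.98 FPKM in PANC-1 and 119 and 105 FPKM in CFPAC-1, 24.1-fold lower. IFI44 was 25.1-fold lower in PANC-1, and IFI35 3.93-fold lower. For IFI27 and IFI44L the PANC-1 levels lie under 1 FPKM, where adding 1 before the log makes the fold change smaller than the ratio of levels.

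RSAD2 (viperin) and CMPK2 act in sequence in making an antiviral nucleotide, CMPK2 supplying the CTP that viperin converts. RSAD2 was 0.32 and 0.16 FPKM in PANC-1 and 9.14 and 11.2 FPKM in CFPAC-1, and CMPK2 was 2.03 and 1.03 FPKM in PANC-1 and 19.6 and 20.5 FPKM in CFPAC-1. Their log2 fold changes were −3.17 (SE 0.13) and −3.09 (SE 0.19). The 2 annotated genes overlap by 830 bases, and no source used here tells whether counting was by strand.

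SAMD9 and SAMD9L restrict poxviruses and slow cell growth. SAMD9 was 6.43 and 5.81 FPKM in PANC-1 and 26.7 and 25.2 FPKM in CFPAC-1 (−1.92, SE 0.10). SAMD9L was 0.77 and 0.86 FPKM in PANC-1 and 18.7 and 18.7 FPKM in CFPAC-1 (−3.44, SE 0.13). PARP9 and DTX3L, which form a ubiquitin ligase complex, and the ADP-ribosyltransferase PARP14 had some of the smallest spreads between replicates. PARP9 was 8.91 and 9.60 FPKM in PANC-1 and 65.1 and 65.2 FPKM in CFPAC-1 (−2.69, SE 0.08, limma adjusted p = 3.72e-11). DTX3L and PARP14 differed by −1.95 and −1.94.

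The 7 remaining members were all lower in PANC-1. TRIM22, a ubiquitin ligase that restricts HIV and influenza virus, was 0.18 and 0.40 FPKM in PANC-1 and 34.3 and 33.6 FPKM in CFPAC-1 (−4.77, SE 0.15, limma adjusted p = 7.88e-11). XAF1, a pro-apoptotic antagonist of XIAP, was 1.56 and 1.26 FPKM in PANC-1 and 34.5 and 37.1 FPKM in CFPAC-1, 25.4-fold lower. EPSTI1, a gene named for its induction by stroma in epithelial cells, was 0.03 and 0.03 FPKM in PANC-1 and 5.13 and 5.74 FPKM in CFPAC-1. The exonuclease ISG20 (−1.62), the scramblase PLSCR1 (−1.20), the nuclear body protein SP110 (−2.01) and the secreted glycoprotein LGALS3BP (−1.99) differed less.

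Members that are neighbours in the genome often differed by unlike amounts. On chromosome 21, the ratio of MX1 to MX2, whose genes are 10913 bases apart in the GENCODE annotation of GRCh38, was 0.25 and 0.16 in PANC-1 with DMSO and 7.25 and 7.21 in CFPAC-1. On chromosome 10, the ratio of IFIT2 to IFIT3 was 1.62 and 1.59 in PANC-1 and 0.34 and 0.34 in CFPAC-1. On chromosome 4, HERC6 stood at 0.06 and 0.07 of the level of HERC5 in PANC-1 and at 1.14 and 1.19 of it in CFPAC-1. Within each of these pairs the ranges of the ratio were apart in the lines, also with IKE.

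On chromosome 12, the ratio of OAS1 to OAS3 was 0.14 and 0.16 in PANC-1 and 1.33 and 1.39 in CFPAC-1. PARP14 and DTX3L on chromosome 3, at 105414 bases the pair furthest apart of the 12, had a ratio of 1.74 and 1.74 in PANC-1. In CFPAC-1 their ratio was 1.63 and 1.76, so that the ranges overlap. Over the 12 neighbour pairs, the difference between the lines in the log2 ratio of FPKM + 1 ran from −4.71 for MX1 and MX2 to 2.18 for IFIT2 and IFIT3, with 0.01 for PARP14 and DTX3L. For RSAD2 and CMPK2 the FPKM ratio was 0.158 and 0.155 in PANC-1 and 0.465 and 0.547 in CFPAC-1, which do not overlap. RSAD2 was under 1 FPKM in PANC-1, and on the FPKM + 1 scale the difference for this pair was −0.08 (exact two-sided permutation p = 1.0), a value that rests on the pseudocount. With 2 libraries against 2, an exact permutation test cannot go below p = 0.333.

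**Figure D3:**
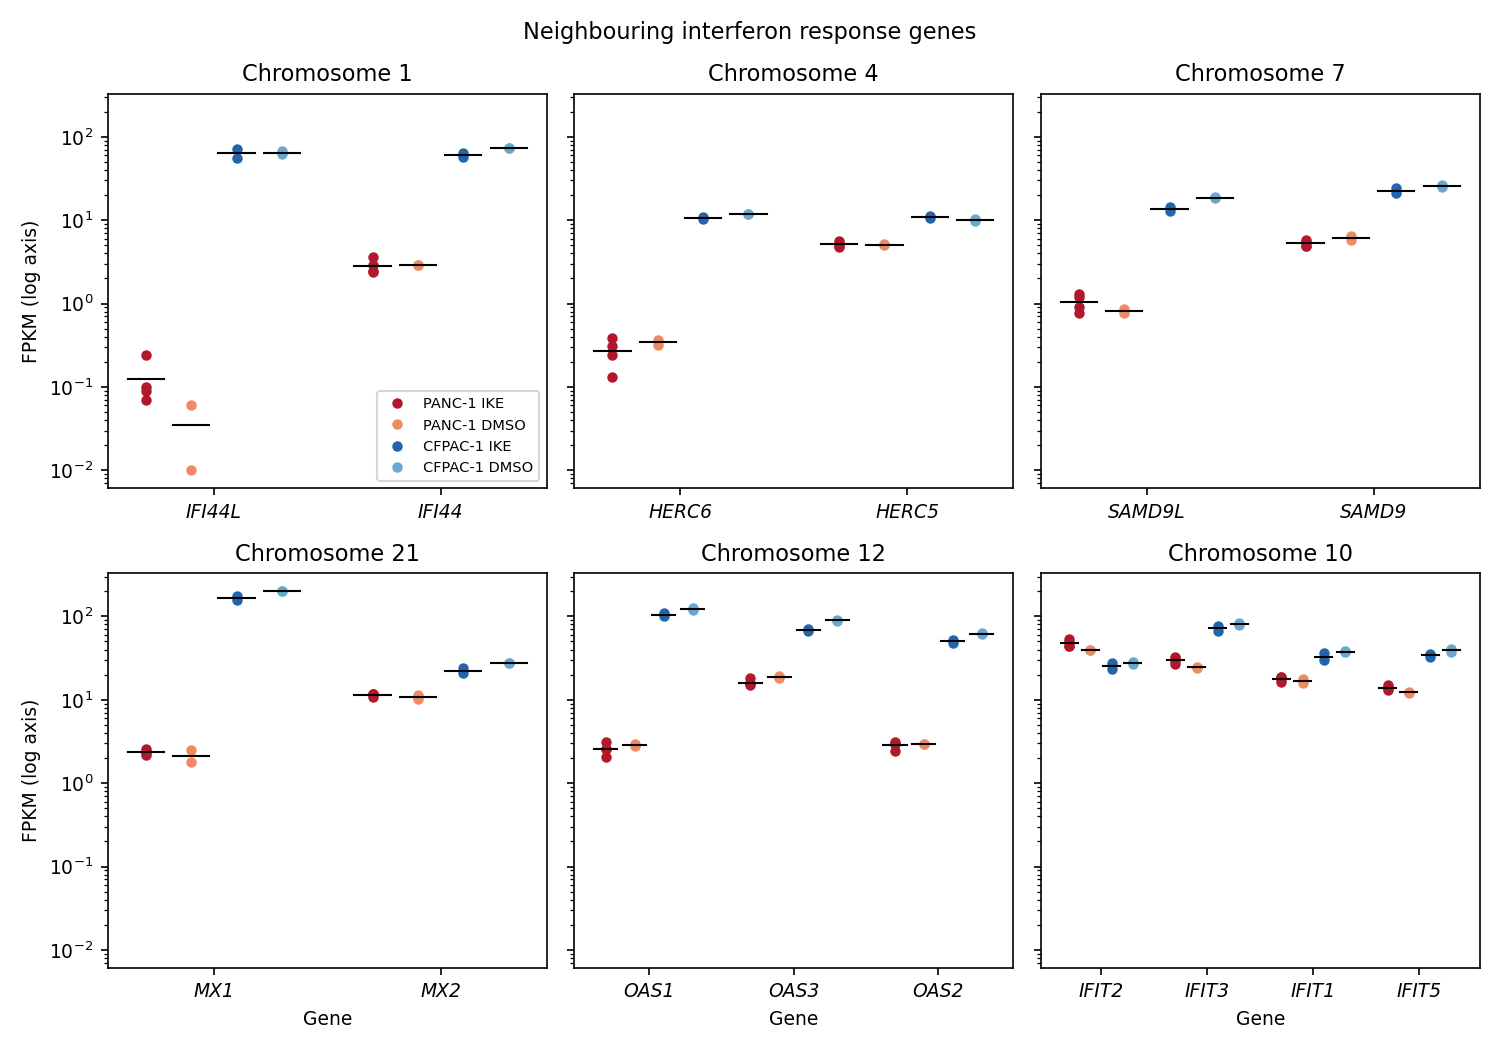
FPKM (log axis) of neighbouring members on 6 chromosomes in each library (points), with the group mean (bar), in the order PANC-1 IKE, PANC-1 DMSO, CFPAC-1 IKE, CFPAC-1 DMSO from left to right. MX2 exceeds MX1 in PANC-1 and MX1 exceeds MX2 in CFPAC-1, and IFIT2 is the highest of its cluster in PANC-1 and the lowest in CFPAC-1.

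In PANC-1, no member passed the threshold with 1 µM IKE against DMSO (0 of 42, limma), while 1.17% of all genes tested were called lower and 1.21% higher. At an unadjusted limma p under 0.05, 4 members were lower and 4 higher, against 9.25% and 8.37% of all genes. The number lower was 1 without DMSO replicate 1, and 7 without DMSO replicate 2 or without IKE replicate 2. The fold change was below 0 for 22 of 42 members and for 51.7% of all genes, with medians of −0.03 and −0.01 on the log2 scale. All 4 IKE libraries lay above both DMSO libraries for 5 members and below both for 4, against 12.3% and 13.6% of all genes. The share of FPKM in mitochondrial genes was 3.13% to 5.27% in the IKE libraries and 2.80% to 3.65% in the DMSO libraries, and its part in these values was not tested.

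PLSCR1, a scramblase that also enters the nucleus, came nearest to the threshold in PANC-1. It was 16.3, 18.0, 15.8 and 15.8 FPKM with IKE and 21.8 and 19.8 FPKM with DMSO, all IKE libraries being below both DMSO libraries (−0.32, SE 0.08, limma adjusted p = 0.0591). IFIT3 was 26.9, 29.2, 32.3 and 31.6 FPKM with IKE and 24.3 and 24.7 FPKM with DMSO (0.28, SE 0.08, limma adjusted p = 0.107). IFIT2 was 44.4, 44.6, 49.8 and 53.5 FPKM with IKE and 39.4 and 39.3 FPKM with DMSO (0.28, SE 0.09, limma adjusted p = 0.138). For both IFIT genes every IKE library was above both DMSO libraries, and so it was for IFIT5 (0.18), IFITM2 (0.24) and, under 1 FPKM, IFI44L (0.12).

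OAS3 was 15.7, 18.1, 15.3 and 15.1 FPKM with IKE and 19.5 and 18.4 FPKM with DMSO (−0.23, SE 0.08, limma adjusted p = 0.155), without overlap. IRF1 was 28.8, 13.3, 14.9 and 11.4 FPKM with IKE and 42.4 and 21.5 FPKM with DMSO (−0.88, SE 0.31, limma adjusted p = 0.173). Its groups overlapped through the high IKE replicate 1 and the low DMSO replicate 2, and its 95% interval, −1.56 to −0.19, is the widest of the members. IFI27 was 0.09, 0.07, 0.07 and 0.27 FPKM with IKE and 0.90 and 0.15 FPKM with DMSO (−0.40, SE 0.16, limma adjusted p = 0.231). Its groups overlapped, and all of these values lay under 1 FPKM. For 38 of the 42 members the 95% interval lay within 0.5 of 0 on the log2 scale, and for 41 within 1, IRF1 being the exception.

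In CFPAC-1, 0 of 42 members passed the threshold with 10 µM IKE against DMSO (limma), against 0.459% of all genes called lower and 0.864% called higher. Most members were nonetheless at slightly lower values with IKE. At an unadjusted limma p under 0.05, 12 were lower and 0 higher, against 7.10% and 6.50% of all genes. The fold change was below 0 for 37 of 42 members and for 49.9% of all genes, with a median of −0.16 over the members and 0.00 over all genes. Both IKE libraries lay below both DMSO libraries for 25 members and above both for 3 (IRF7, IRF9 and HERC5), against 23.9% and 23.0% of all genes. The mean over members of log2(FPKM + 1) was 5.65 and 5.54 with IKE and 5.76 and 5.76 with DMSO, IKE replicate 2 being the lower one. Without that library, 3 members were lower at an unadjusted p under 0.05 and 31 of 42 fold changes were below 0. Without DMSO replicate 2, 6 were lower at that p, and with a pseudocount of 0.1 in place of 1 it was 5.

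EPSTI1 came nearest to the threshold in CFPAC-1, with 3.75 and 3.50 FPKM with IKE and 5.13 and 5.74 FPKM with DMSO (−0.48, SE 0.10, limma adjusted p = 0.0558). OAS3 was 71.4 and 66.4 FPKM with IKE and 89.3 and 91.4 FPKM with DMSO (−0.39, SE 0.09, limma adjusted p = 0.0628). TRIM22 was 24.4 and 21.5 FPKM with IKE and 34.3 and 33.6 FPKM with DMSO (−0.55, SE 0.15, limma adjusted p = 0.108). In all 3 the IKE libraries lay below the DMSO libraries without overlap.

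The next members by p were MX2 (−0.30), SAMD9L (−0.43), OAS2 (−0.31), RSAD2 (−0.39) and CMPK2 (−0.53), with limma adjusted p from 0.152 to 0.228. All 4 OAS and both MX genes were below both DMSO libraries. BST2, at 330.4 and 299 FPKM with IKE and 313 and 316 FPKM with DMSO, and IFI27, at 587 and 588 FPKM with IKE and 548 and 635 FPKM with DMSO, overlapped between the groups. The 95% interval lay within 0.5 of 0 for 25 members and within 1 for 41, and the bounds ran from −1.14 for IRF1 to 0.60 for IRF9.

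**Figure D4:**
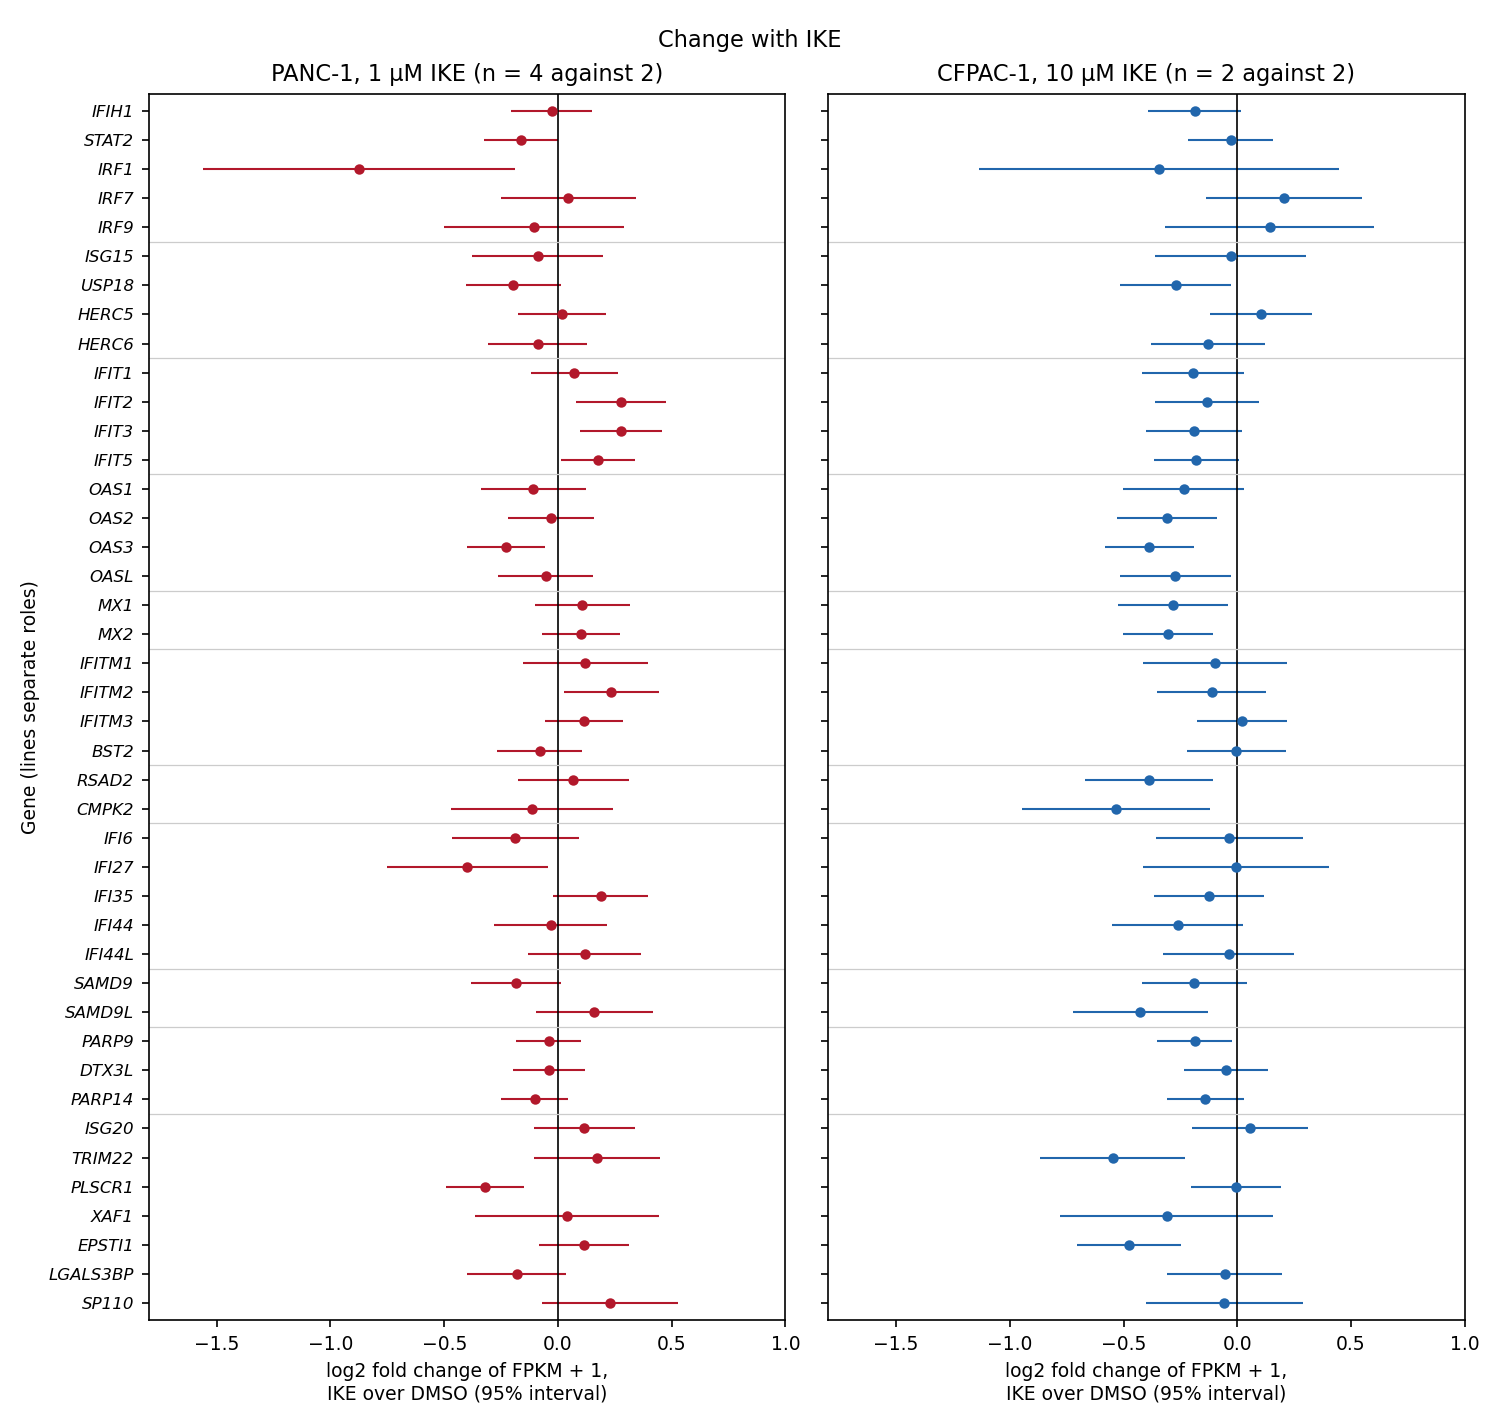
Change of each member with IKE, as the log2 fold change of FPKM + 1 over DMSO with its 95% interval, in PANC-1 (left, 1 µM) and CFPAC-1 (right, 10 µM). None of the 42 passed the threshold in either line by limma (8 in PANC-1 and 12 in CFPAC-1 at an unadjusted p under 0.05), and most CFPAC-1 points lie slightly left of 0.

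The change with IKE was compared between the lines as a difference of differences, in which dose and line cannot be told apart. For 0 of 42 members was this difference called (limma), against 0.107% of all genes called higher in PANC-1 and 0.229% called lower. At an unadjusted limma p under 0.05, 10 members had the higher change in PANC-1 and 1 the lower, against 5.83% and 6.52% of all genes, and 11 differences were below 0, against 51.4% of all genes. The median was 0.16. EPSTI1 (0.59, limma adjusted p = 0.122), TRIM22 (0.72, limma adjusted p = 0.171) and IFIT3 (0.47, limma adjusted p = 0.171) had the smallest p. Next came MX2 (0.41), SAMD9L (0.59), IFIT5 (0.36), IFIT2 (0.41) and RSAD2 (0.46), with limma adjusted p from 0.213 to 0.312. EPSTI1, TRIM22 and RSAD2 passed the filter only through CFPAC-1 and were under 1 FPKM in every PANC-1 library. There the added 1 holds the PANC-1 change near 0 (0.12, 0.17 and 0.07). Their differences are therefore mostly the CFPAC-1 change (−0.48, −0.55 and −0.39) with its sign turned. Intervals ran from −1.58 for IRF1 to 1.14 for TRIM22, and 16 of the 42 lay within 0.5 of 0.

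The genes upstream of the members were read from lists that were also chosen with earlier results known. Of 21 interferon ligands, 14 were listed at 0 in all libraries, and apart from IFNE none exceeded 0.28 FPKM. IFNE, an epithelial type I interferon, was 0.59 and 1.07 FPKM in PANC-1 with DMSO and 3.53 and 3.76 FPKM in CFPAC-1 (−1.36, SE 0.15, limma adjusted p = 6.64e-06), and it was not called with IKE in either line. Among 11 receptors, kinases and STATs, 7 were lower in PANC-1 than in CFPAC-1, 3 higher and 1 not called, with a median of −0.66. IFNLR1 passed the filter only through CFPAC-1 and so had to differ; of the other 10, 6 were lower and 3 higher, with a median of −0.45. The lambda receptor chains IFNLR1 (−1.44) and IL10RB (−1.10) were lower, while the kinase TYK2 was higher, with 21.8 and 20.9 FPKM against 10.9 and 9.44 FPKM in CFPAC-1.

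Of 15 genes of nucleic acid sensing, 14 were tested and 7 were lower in PANC-1, 2 higher and 5 not called, with a median of −0.30. The endosomal RNA sensor TLR3 was 0.34 and 0.09 FPKM in PANC-1 and 18.8 and 15.9 FPKM in CFPAC-1. TLR3 passed the filter only through CFPAC-1 and so had to differ; of the other 13 tested, 6 were lower and 2 higher, with a median of −0.07. STING1, the adaptor for cytosolic DNA, was 8.55 and 9.33 FPKM in PANC-1 and 39.7 and 42.4 FPKM in CFPAC-1 (−2.08), whereas CGAS, the enzyme that feeds it, was higher in PANC-1, with 10.7 and 11.1 FPKM against 2.82 and 2.49 FPKM (1.70). DHX58 (LGP2), a regulator of RNA sensing, was lower (−2.48). Of 11 negative regulators, 9 were tested, with 5 lower, 3 higher and 1 not called. They included the phosphatases PTPN1 (−0.80), PTPN6 (−0.74) and PTPN11 (0.83) and the repressor IRF2 (−0.65).

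A further list of 44 interferon-stimulated genes outside the members, of which 42 were tested, had 39 lower in PANC-1, 2 higher (TRIM5 and ZC3HAV1) and 1 not called, with a median of −1.86. The DNA sensor IFI16 was 0.27 and 0.27 FPKM in PANC-1 and 91.1 and 88.3 FPKM in CFPAC-1 (−6.16). The guanylate-binding proteins GBP2 and GBP1 differed by −5.84 and −4.62. These 3 genes were among 6 of the list that passed the filter only through CFPAC-1 and so had to differ. Of the other 36 tested, 33 were lower and 2 higher, with a median of −1.71, among them the trypanolytic factor APOL1 (−5.28). The background of 35.2% lower and 43.4% higher calls in the main analysis applies to each of these lists.

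**Figure D5:**
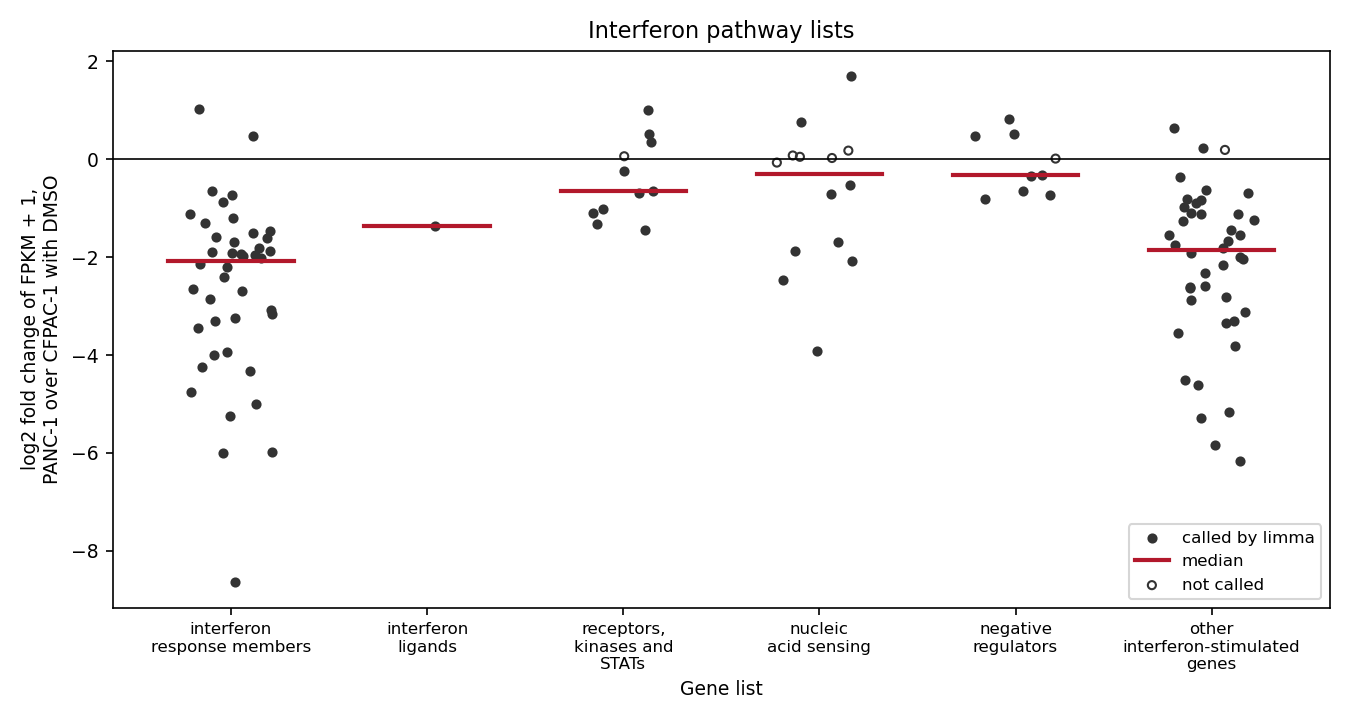
Difference between the lines with DMSO (log2 fold change of FPKM + 1, PANC-1 over CFPAC-1) for each tested gene of the members and of 5 lists of the interferon pathway, with the median of each list as a bar and open points for genes not called. The medians are −2.08 for the members and −1.86 for the other interferon-stimulated genes, and lie between −0.66 and −0.30 for the receptors, sensors and negative regulators.

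With IKE in PANC-1, 1 of the 42 tested other interferon-stimulated genes was called higher and 1 lower, against 1.21% and 1.17% of all genes. In CFPAC-1 it was 1 higher and 2 lower of the 42, against 0.864% and 0.459% of all genes. Of the other lists, only nucleic acid sensing had a call, 1 of 14 lower in PANC-1. In PANC-1, of the other interferon-stimulated genes WARS1, the cytosolic tryptophan tRNA synthetase, rose to 78.1, 81.0, 74.9 and 79.7 FPKM with IKE, against 50.6 and 47.3 FPKM with DMSO (0.67, SE 0.06, limma adjusted p = 2.05e-04). TNFSF10, which encodes the death ligand TRAIL, fell to 2.45, 2.55, 2.2 and 1.69 FPKM, against 4.26 and 4.56 FPKM with DMSO (−0.76, SE 0.11, limma adjusted p = 0.00555). Without DMSO replicate 1 or 2 its adjusted p was 0.0582 to 0.0662. IRF3, a transcription factor of the sensing list, was lower with IKE (−0.46, limma adjusted p = 0.0378), but its call was lost (adjusted p of 0.0533 to 0.336) when any single library except PANC-1 IKE replicate 2 was left out.

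In CFPAC-1, WARS1 rose to 182 and 178 FPKM with IKE, against 116 and 119 FPKM with DMSO (0.61, SE 0.06, limma adjusted p = 3.97e-04). GBP1 was 17.9 and 14.9 FPKM with IKE and 26.6 and 24.6 FPKM with DMSO (−0.62, limma adjusted p = 0.0262). SAMHD1, which depletes deoxynucleotides, was 24.0 and 22.6 FPKM with IKE and 32.9 and 33.0 FPKM with DMSO (−0.48, limma adjusted p = 0.0422). Both lost the call in several alternatives. For GBP1 these were a pseudocount of 0.1 (limma adjusted p = 0.477), the replicate block (0.0703) and the fits without CFPAC-1 DMSO replicate 1 or 2 or IKE replicate 2 (0.0909 to 0.204). For SAMHD1 they were a pseudocount of 0.1 (0.0655), no filter on low values (0.0584), the replicate block (0.0554) and the fits without any 1 of the 4 CFPAC-1 libraries or PANC-1 IKE replicate 4 (0.0604 to 0.262). WARS1 is thus the single gene of these lists and the members that was called with IKE in both lines. It belongs to the tRNA synthetases as well as to the genes that interferon gamma induces.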

How the data were processed

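RNA was measured in 10 libraries of PANC-1 and CFPAC-1 cells. Per the labels' protocols, total RNA was depleted of rRNA and made into libraries that keep the strand. No source used here gives the annotation or tells whether counting was by strand. The submitters' processing notes name the build GRCh38 and the tools HISAT2 2.1.0, StringTie 1.3.4, Bowtie2 2.2.8, DESeq2 and fastp 0.18.0, with no role for each. The authors deposited FPKM to 2 decimals for 20289 genes. Another 9 columns hold no values and were not used. Depth is unknown, so counting error cannot be given.

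Groups are the labelled combinations of line and treatment. The labels call the replicates bioreplicates without saying whether they were separate cultures, and p-values thus reflect only how these samples vary, which may be technical. The members and all lists were chosen with earlier results of these data known. The 13077 genes that reached 1 FPKM in 2 or more libraries were tested on log2(FPKM + 1) with limma 3.58.1 in R 4.3.3, with a variance trend and a mean per group over all 10 libraries (6 residual degrees of freedom). Tests were two-sided, with Benjamini-Hochberg adjustment over all genes tested and a threshold of 0.05. The fit was tested on simulated data. The contrasts set IKE against DMSO within PANC-1 and within CFPAC-1, these changes against each other, and PANC-1 against CFPAC-1. Named per comparison are up to 8 members of smallest p, their family neighbours, and up to 4 called genes per further list. Some are given with the fold change alone. Other members were named to account for all 42. Genes named for a call under 1 setting were chosen after their values were seen. Some genes of the further lists are not reported here. Alternatives were another pseudocount, other filters on low values, other scalings, a replicate block, fewer libraries in the fit and each library left out in turn. Promoter windows are from RefSeq (GRCh38.p14).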

Additional observations from a re-analysis of the deposited data

Results flagged for a closer look

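Within the 4 PANC-1 libraries with IKE, 6 of the 42 members had a library that stood apart from the other 3, by a gap over the group's range above Dixon's 95% critical value. Chance flags about 1 in 20 groups. MX2 was lowest in replicate 1 (10.88 FPKM), and so was RSAD2 (0.18 FPKM). Replicate 2 was highest for IFITM3 (663.94 FPKM), STAT2 (11.8 FPKM) and USP18 (5.18 FPKM), and replicate 4 for IFI27 (0.27 FPKM). None of these genes was called with IKE by limma, with or without the replicate concerned.

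For IFIT3 and IFIT5, every IKE library was above every DMSO library in PANC-1 and below every DMSO library in CFPAC-1. The difference of the log2 changes, PANC-1 minus CFPAC-1, was 0.47 for IFIT3 and 0.36 for IFIT5. The interaction contrast of limma gave adjusted p of 0.171 and 0.235, so neither difference passed the threshold, and the dose differed between the lines.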

How the results depend on the processing

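The members' line difference, 40 lower and 2 higher in PANC-1, was the same under every alternative run, each library left out in turn included. With IKE in CFPAC-1 no member was called lower in the main analysis. This became 1 (EPSTI1) with no filter on low values, with a 5 FPKM filter, with quantile normalization and with median-ratio scaling, 2 (OAS3 and TRIM22) with CFPAC-1 libraries only, and 0 to 2 with 1 library left out, the 2 being OAS3 and EPSTI1 without PANC-1 IKE replicate 2. With IKE in PANC-1 none was called lower in the main analysis, against 1 (PLSCR1) with the 5 FPKM filter and 0 to 2 with 1 library left out (IFI27 without DMSO replicate 2, IRF1 without IKE replicate 1, OAS3 and PLSCR1 without IKE replicate 2). An alternative chosen after seeing the data, PANC-1 IKE replicates 3 and 4 alone, called 3 lower (OAS3, IRF1 and PLSCR1) and 2 higher (IFIT2 and IFIT3). The cause was not tested. At an unadjusted p under 0.05, the 12 members lower in CFPAC-1 became 5 with a pseudocount of 0.1, 19 with CFPAC-1 libraries only and 3 to 14 with 1 library left out, and the 4 lower in PANC-1 became 1 to 7 with 1 library left out. Over all genes, calls with 1 library left out ran from 64 to 152 higher and 16 to 104 lower in CFPAC-1, and from 35 to 206 higher and 7 to 298 lower in PANC-1. The quantile setting called 102 lower in CFPAC-1. Same-numbered samples did not deviate together (correlations of −0.00 in CFPAC-1 and 0.05 in PANC-1), so the numbers do not pair them. With the replicate number as a block the members' calls were 0 with IKE in either line and 40 lower and 2 higher between the lines. Over all genes the block gave 87 higher and 32 lower calls in CFPAC-1, against 113 and 60 without it, and 96 and 53 in PANC-1, against 158 and 153. Only PANC-1 with IKE has replicates 3 and 4, so under the block these libraries do not enter the PANC-1 change. IRF3 stood at −0.39 both under the block and with PANC-1 IKE replicates 1 and 2 alone, against −0.46 in the main analysis. Over all genes, PANC-1 IKE replicates 1 and 2 alone, without a block, gave 106 higher and 66 lower calls. The part of the blocking itself in the fewer calls in PANC-1 was not tested. GBP1, SAMHD1 and IRF3 lost their calls with IKE under the block (limma adjusted p of 0.0703, 0.0554 and 0.129). Fold changes of members under 1 FPKM in PANC-1 rest on the pseudocount.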
